A study of Mus musculus with 72 samples.

Results

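Neural stem and progenitor cells taken from wild-type embryonic mouse brains were compared with and without ART558, both times under the replication stress of aphidicolin (Aph), a DNA polymerase inhibitor. The libraries were chosen by their titles as the wild-type junction libraries made with the chr14 bait, which are 8 of the 60 junction libraries and of the 72 samples of the series: 4 treated with Aph and 4 with Aph + ART558. Both groups received 0.5 µM Aph for 72 h and then 0.25 µM for 24 h, and the Aph + ART558 group also received ART558 at 5 µM and then 2.5 µM over the same hours. Both groups carried the Cas9 break, since all cells were transfected with a plasmid for Cas9 and the chr14 guide. A wild-type chr14 library without Aph was not analysed here, so both arms hold stressed cells and the effect of Aph itself is in neither. The cells are primary cells of C57BL/6J mice and keep their end-joining genes. Junction files hold no expression, so the cell type could not be checked against marker genes.

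LAM-HTGTS maps what a chosen DNA end is joined to. Cas9 cuts the genome at the bait, and reads that start at a primer beside the cut run along the bait end and across the junction into the partner, called the prey. Most mammalian breaks are sealed by non-homologous end joining, which needs Xrcc4 and joins ends with little or no shared sequence. Polymerase theta (Pol θ) carries out theta-mediated end joining, in which short stretches of matching sequence (microhomology) in resected ends are annealed and extended, and which can leave inserted bases. ART558 inhibits the DNA synthesis activity of Pol θ. The comparison asks what this inhibition does to junctions in cells that still have non-homologous end joining.

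The bait break lies on chromosome 14 of the mm10 build, after base 83268846 on the plus strand, inside the guide match at chr14:83268830-83268849. It lies in no protein-coding gene, and the nearest one, the protocadherin gene Pcdh17, starts 1174717 bp away. The reference around the break is shown with the 20 bases of the guide match in capitals (chr14:83268787-83268906, plus strand), since all losses and microhomologies below are read against it.
reference around the break: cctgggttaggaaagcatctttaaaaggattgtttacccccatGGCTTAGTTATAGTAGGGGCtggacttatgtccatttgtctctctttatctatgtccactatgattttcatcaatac
An uncut bait end gives 164 bp of bait, from the primer to the break. It is shown next with 5 bases in capitals, each the last retained base of one of the 5 commonest bait ends among junctions with distant prey (chr14:83268683-83268846, plus strand).
bait with its commonest ends: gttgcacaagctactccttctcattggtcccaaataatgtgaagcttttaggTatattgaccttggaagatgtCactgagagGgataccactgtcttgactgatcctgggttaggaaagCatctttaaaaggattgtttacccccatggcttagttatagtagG
Those ends lay 0, 44, 81, 90 and 111 bp short of the break, with 2320, 585, 882, 731 and 682 junctions over the 8 libraries. The intact end was thus the commonest single end, and the others lay deep in the bait.

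The 4 Aph libraries held 3306 to 4533 junctions (15818 in all) and the 4 Aph + ART558 libraries 4273 to 6251 (21087 in all). On the nuclear chromosomes there were 36730 junctions, of which 23177 joined the bait to another chromosome and 10559 lay within 1 Mb of the break. Distinct combinations of bait end, prey position and prey strand made up 81.3% to 85.7% of junctions in the Aph libraries and 81.3% to 93.7% in the Aph + ART558 libraries. By their read names, all 8 libraries came from the same sequencing run. Reads carried no molecular identifiers, so intervals cover counting error only. For the share of direct joins, the 95% Wilson interval of a single library spanned 2.91 to 3.75 percentage points. All values are shares of recovered junctions, and the number of breaks per cell was not measured. With 4 libraries against 4 the exact permutation test (two-sided) has 70 assignments and cannot give a p below 0.0286, which is reached when the groups do not overlap. The labels do not say that libraries came from separate cultures, although the methods call replicates biological, so p-values measure the spread between these libraries. Of 13 measures tested together, bait-side joining and prey density in break clusters separated the groups completely, and after Benjamini-Hochberg adjustment no measure fell below 0.186.

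Microhomology at distant junctions, those more than 1 Mb from the break or on another chromosome, shifted little with ART558. Direct joining, with 0 bp shared, made up 28.0%, 25.6%, 22.7% and 24.5% of junctions with 0 to 10 bp in Aph replicates 1 to 4. The Aph + ART558 replicates gave 25.9%, 27.6%, 25.5% and 27.9%. The groups overlapped, with means of 25.2% ± 2.22 and 26.7% ± 1.20 (SD, n = 4 each; exact permutation p = 0.314, adjusted p = 0.340 over 13 measures). The mean microhomology was 2.37, 2.43, 2.66 and 2.54 bp with Aph and 2.40, 2.24, 2.42 and 2.30 bp with Aph + ART558. The mean thus went from 2.50 to 2.34 bp with overlapping libraries (exact permutation p = 0.114, adjusted p = 0.212). The share with 5 to 10 bp was 19.6% ± 2.06 and 17.2% ± 1.03 (SD, n = 4; exact permutation p = 0.114, adjusted p = 0.212). The median was 2 bp in both groups.

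Along the whole spectrum, a single length separated the groups. Junctions with 1 bp made up 17.4%, 18.6%, 17.7% and 17.4% with Aph and 19.4%, 19.8%, 18.9% and 18.7% with Aph + ART558. Every Aph + ART558 library lay above every Aph library, by 1.41 percentage points on average (exact permutation p = 0.0286, adjusted p = 0.314 over the 11 lengths). After this adjustment 0 of the 11 lengths passed 0.05, and 1 did so before it. The 2 bp class was alike in size, at 15.6% and 15.5%, and so was the 3 bp class, at 11.7% and 12.1%. From 4 to 9 bp all 6 means were lower with ART558, by 0.187 to 0.902 percentage points, each within the spread of the libraries. At 10 bp the means were 0.781% and 0.880%. Shared bases were also read against the bait reference. Overlaps of 1 and 2 bp were exact in 100% of junctions, and over 1 to 10 bp the exact share was 94.7% with Aph and 95.7% with Aph + ART558.

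**Figure D1:**
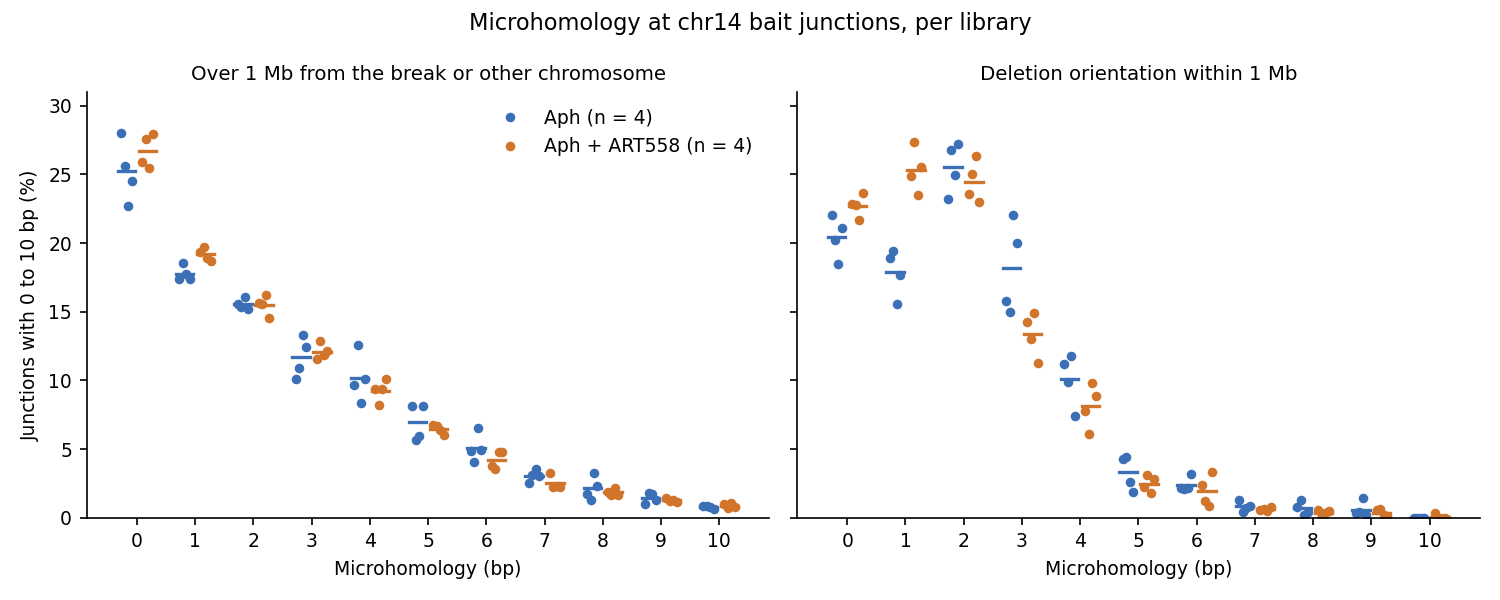
Share of junctions at each microhomology length from 0 to 10 bp, in percent, for distant junctions and for deletions at the break; points are the 4 libraries of each group and lines are group means. At distant junctions the groups overlap at every length but 1 bp (17.8% and 19.2%), and in deletions the 1 bp class rises from 17.9% to 25.3% while the 3 bp class goes from 18.2% to 13.4%.

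How distant junctions joined depended on where the bait end lay. Intact bait ends joined directly in 71.5% ± 3.08 of cases with Aph and 74.9% ± 3.6 with Aph + ART558 (SD, n = 4; exact permutation p = 0.171), with a mean microhomology of 0.506 and 0.4 bp. Ends that had lost 41 to 60 bp joined directly in 15.4%, 17.3%, 14.2% and 14.4% with Aph. With Aph + ART558 the same ends gave 20.1%, 21.1%, 19.2% and 21.7%. The groups did not overlap (exact permutation p = 0.0286, adjusted p = 0.171 over 48 comparisons in distant junctions and deletions), and the mean microhomology of these ends was 2.88 against 2.49 bp. Ends that had lost 6 to 20 bp behaved alike, with direct joins in 17.1% ± 2.22 and 24.6% ± 2.07 (SD, n = 4; exact permutation p = 0.0286, adjusted p = 0.171). In the 5 other classes of resected ends the direct shares of the groups overlapped.

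Around the break, the class that differed most in proportion was inverted joining on the bait side. A prey past the break in the bait's own reading direction is a deletion, and in the opposite direction an inversion. A prey on the bait side lies in sequence the bait end itself belongs to, so it is joined in the same direction, as in a duplication, or inverted, as in a fold-back. Bait-side junctions within 1 Mb made up 10.6%, 9.49%, 11.7% and 10.2% of all junctions with Aph and 12.7%, 12.4%, 11.9% and 12.3% with Aph + ART558. All Aph + ART558 libraries were higher than all Aph libraries, with means of 10.5% ± 0.934 and 12.3% ± 0.356 (SD, n = 4; exact permutation p = 0.0286, adjusted p = 0.186 over 13 measures). Without any 1 of the Aph + ART558 libraries the difference was 1.68 to 1.97 percentage points (exact permutation p = 0.0571). The groups still did not overlap, since with 3 libraries against 4 this p can also come with complete separation. The inverted orientation carried most of that difference, at 3.96%, 2.73%, 3.65% and 2.83% with Aph and 4.95%, 5.27%, 4.55% and 5.12% with Aph + ART558 (exact permutation p = 0.0286, adjusted p = 0.0786 over 11 class measures). The same orientation was 7.20% ± 0.656 and 7.34% ± 0.318 (SD, n = 4; exact permutation p = 0.657), with overlapping groups.

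By distance, the inverted bait-side junctions between 1 and 10 kb from the break stood apart. They made up 0.598%, 0.396%, 0.578% and 0.467% of junctions with Aph, from 27, 17, 19 and 17 junctions. With Aph + ART558 they made up 1.34%, 1.64%, 1.68% and 1.75%, from 57, 102, 77 and 104 junctions. The means were 0.510% ± 0.0951 and 1.6% ± 0.179 (SD, n = 4), a 3.14-fold difference without overlap (exact permutation p = 0.0286, adjusted p = 0.210 over 22 classes). The 95% Wilson intervals of the Aph libraries reached at most 0.901% and those of the Aph + ART558 libraries went down to 1.04%. Counting each distinct combination of bait end, prey position and prey strand once gave 0.469% and 1.61%. The difference held at 1 to 2 kb (0.190% and 0.572%), at 2 to 5 kb (0.212% and 0.625%) and at 5 to 10 kb (0.109% and 0.406%), with no overlap between the groups in any of the 3 bins (exact permutation p = 0.0286 each). These junctions also had shorter bait ends with ART558: their median bait loss was 17, 31, 12 and 15 bp with Aph and 44, 47.5, 56 and 41 bp with Aph + ART558. Their mean microhomology was 1.82 ± 0.259 and 2.02 ± 0.344 bp (SD, n = 4; exact permutation p = 0.4), with overlapping groups.

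The other classes moved less. Same-direction bait-side junctions at 1 to 10 kb were 0.377%, 0.630%, 0.365% and 0.467% with Aph and 0.872%, 0.706%, 0.810% and 0.789% with Aph + ART558 (exact permutation p = 0.0286, adjusted p = 0.210). Nearer the break, at 200 bp to 1 kb, they were 4.30% and 4.20%. Inversions past the break were few, 26 to 49 per library, and made up 0.841% ± 0.0836 with Aph and 0.744% ± 0.146 with Aph + ART558 (SD, n = 4; exact permutation p = 0.286, adjusted p = 0.340). In each of the 5 distance classes of inversions the groups overlapped, and the largest class held 0.269% and 0.249% of junctions. Translocations to other chromosomes were 63.8% ± 1.74 and 62.5% ± 1.41 (SD, n = 4; exact permutation p = 0.314, adjusted p = 0.340).

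**Figure D2:**
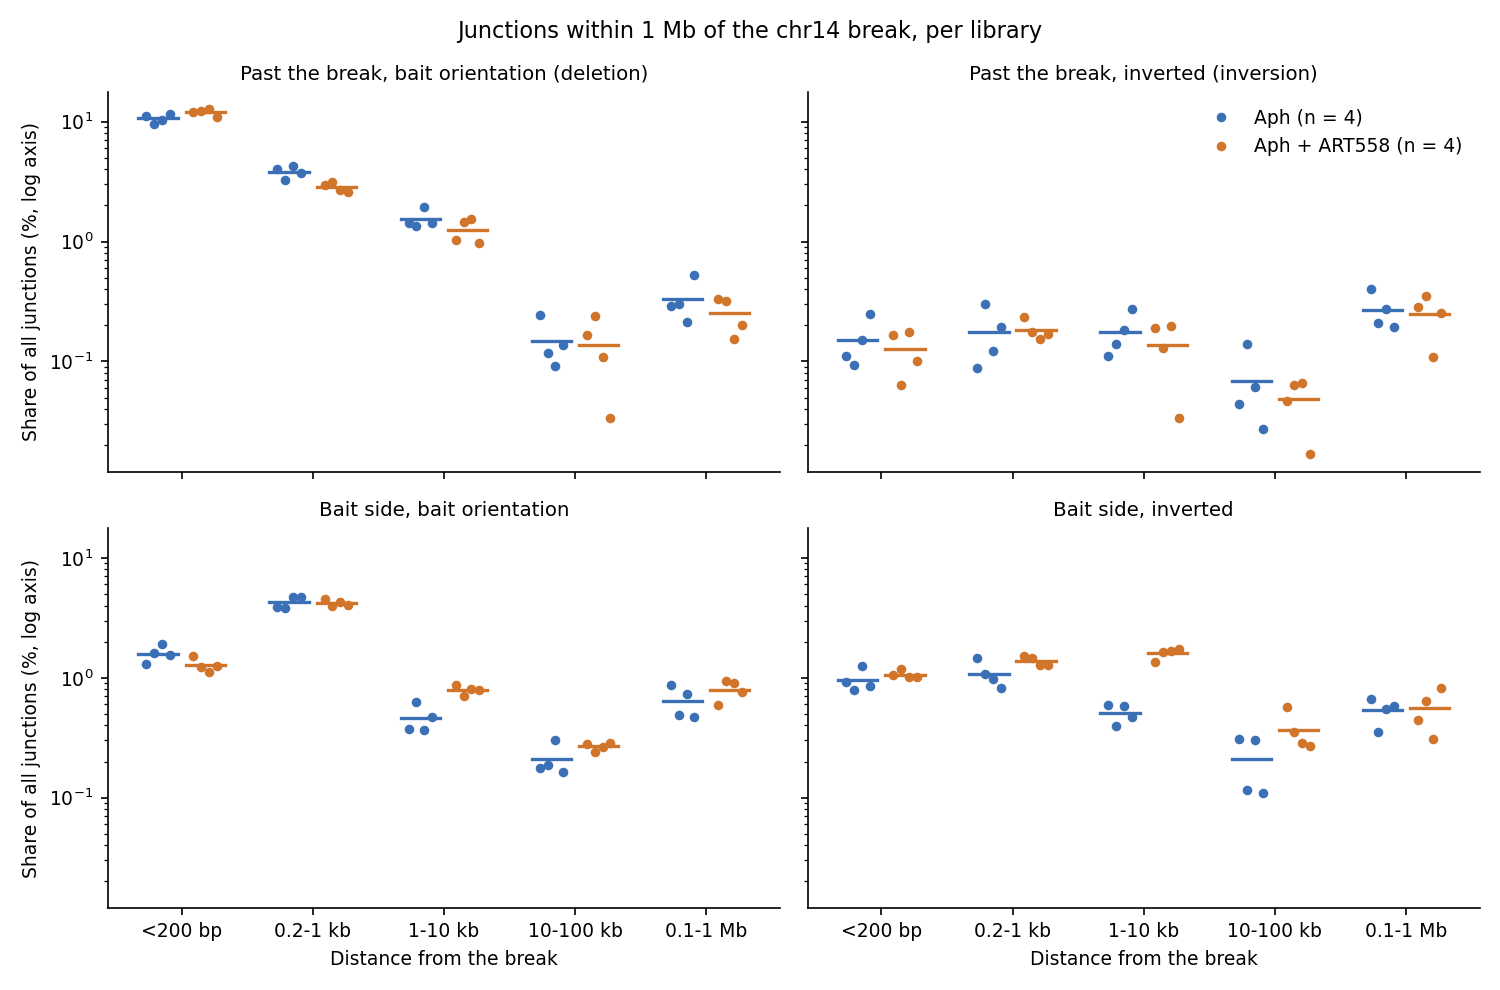
Share of all junctions, in percent, in each orientation and distance class around the chr14 break (logarithmic axis); points are the 4 libraries of each group and lines are means. Inverted bait-side junctions at 1 to 10 kb sit at 0.396% to 0.598% with Aph and at 1.34% to 1.75% with Aph + ART558, while inversions past the break overlap at every distance.

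Deletions at the break had like shares in both groups but differed in size and in where the bases were lost. They made up 17.1%, 14.6%, 16.9% and 17.5% of junctions with Aph and 16.5%, 17.5%, 17.2% and 14.8% with Aph + ART558 (exact permutation p = 0.971). The total deleted length, which is the bait loss, the loss past the break and 1 copy of the microhomology, had medians of 124.5, 127.5, 140 and 130 bp with Aph and 112, 115, 101 and 109 bp with Aph + ART558. Every Aph + ART558 library was shorter (exact permutation p = 0.0286, adjusted p = 0.0536 over 15 deletion measures). Deletions whose prey began 200 bp to 1 kb past the break fell from 3.82% ± 0.432 to 2.84% ± 0.235 of all junctions without overlap (SD, n = 4; exact permutation p = 0.0286, adjusted p = 0.210 over 22 classes). Without any 1 of the Aph + ART558 libraries this difference was -1.08 to -0.905 percentage points (exact permutation p = 0.0571), still without overlap. The nearest class, under 200 bp, was 10.7% and 12% (exact permutation p = 0.0857). The median bait loss was 18, 21, 18 and 23.5 bp with Aph and 37, 39, 39 and 39 bp with Aph + ART558, again without overlap (exact permutation p = 0.0286, adjusted p = 0.0536). The median loss past the break went the other way, from 65.5, 59, 89.5 and 55.5 bp to 45, 48, 35 and 38 bp (exact permutation p = 0.0286, adjusted p = 0.0536).

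The bait-end spectrum of the deletions shows where the median came from. Losses of 1 to 5 bp made up 20.5%, 15.8%, 18.6% and 15.1% of deletions with Aph but 9.44%, 11.7%, 9.92% and 10.3% with Aph + ART558. Losses of 41 to 60 bp made up 7.49%, 8.60%, 8.48% and 7.39% with Aph and 14.7%, 15.1%, 16.8% and 15.4% with Aph + ART558. These classes did not overlap, nor did losses of 21 to 40 bp (9.5% and 13.1%) and of 61 to 80 bp (7.21% and 12%; exact permutation p = 0.0286 and adjusted p = 0.0643 over 9 classes for each of the 4). Losses of over 100 bp were 16.2% and 12.7% (exact permutation p = 0.0571). The mean bait loss, 42.2 ± 3.07 and 45.5 ± 0.583 bp (SD, n = 4), therefore differed less than the median (exact permutation p = 0.143, adjusted p = 0.232 over 13 measures). Inverted bait-side junctions moved alike, from 20.4% to 7.39% for losses of 1 to 5 bp and from 8.96% to 18.1% for 41 to 60 bp (exact permutation p = 0.0286 each). Also without overlap, their losses of 21 to 40 bp rose from 8.13% to 13.3%, while those of over 100 bp fell from 22.1% to 14.9% (exact permutation p = 0.0286, adjusted p = 0.0643 each).

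Microhomology in deletions was also lower with ART558. Deletions with 1 bp made up 18.9%, 19.4%, 15.6% and 17.7% with Aph and 24.9%, 27.4%, 23.5% and 25.6% with Aph + ART558, without overlap (exact permutation p = 0.0286, adjusted p = 0.157 over 11 lengths). Deletions with 3 bp made up 15.8%, 15%, 22.1% and 20% with Aph and 14.3%, 13.0%, 14.9% and 11.3% with Aph + ART558 (exact permutation p = 0.0286, adjusted p = 0.157). The groups lay close, with the lowest Aph library at 15% and the highest Aph + ART558 library at 14.9%. Together, 0 and 1 bp went from 38.3% ± 3.01 to 48.1% ± 2.15 without overlap (SD, n = 4; exact permutation p = 0.0286, adjusted p = 0.0857 over 3 groups of lengths). The mean was 2.10, 2.09, 2.25 and 2.02 bp with Aph and 1.89, 1.75, 1.83 and 1.86 bp with Aph + ART558 (exact permutation p = 0.0286, adjusted p = 0.229 over 40 class measures). Deletions with 5 to 10 bp were 7.83% and 5.95% (exact permutation p = 0.143).

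The 6 most frequent deletion products show what such joins look like. Each is the joined sequence on the plus strand, with 40 bases of context either side reduced by the shared stretch, and the microhomology is in capitals.
deletion of 18 bp: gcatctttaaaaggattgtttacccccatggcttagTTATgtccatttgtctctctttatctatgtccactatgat
deletion of 23 bp: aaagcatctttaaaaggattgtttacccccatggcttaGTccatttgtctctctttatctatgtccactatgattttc
deletion of 22 bp: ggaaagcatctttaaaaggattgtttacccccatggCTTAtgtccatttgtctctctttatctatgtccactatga
deletion of 17 bp at GT: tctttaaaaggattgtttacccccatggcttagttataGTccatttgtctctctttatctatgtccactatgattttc
deletion of 17 bp at GGCT: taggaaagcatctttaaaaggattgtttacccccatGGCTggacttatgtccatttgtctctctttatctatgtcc
deletion of 111 bp: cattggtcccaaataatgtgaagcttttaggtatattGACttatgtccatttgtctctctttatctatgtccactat
The deletion of 18 bp at the shared TTAT was the commonest, with 16 junctions over the Aph libraries and 13 over the larger Aph + ART558 libraries, and it was found in every library. The deletion of 23 bp at GT had 13 and 7 junctions, and that of 22 bp at CTTA 10 and 9. The deletions of 17 bp had 10 and 6 junctions at GT and 9 and 7 at GGCT. That of 111 bp at GAC had 8 and 7 junctions, and it removed 103 bp of bait, 5 bp past the break and 1 of the copies of the shared 3 bp. These products were each a small part of the deletions, 554 to 1090 per library, and they were given for their sequence and not tested.

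**Figure D3:**
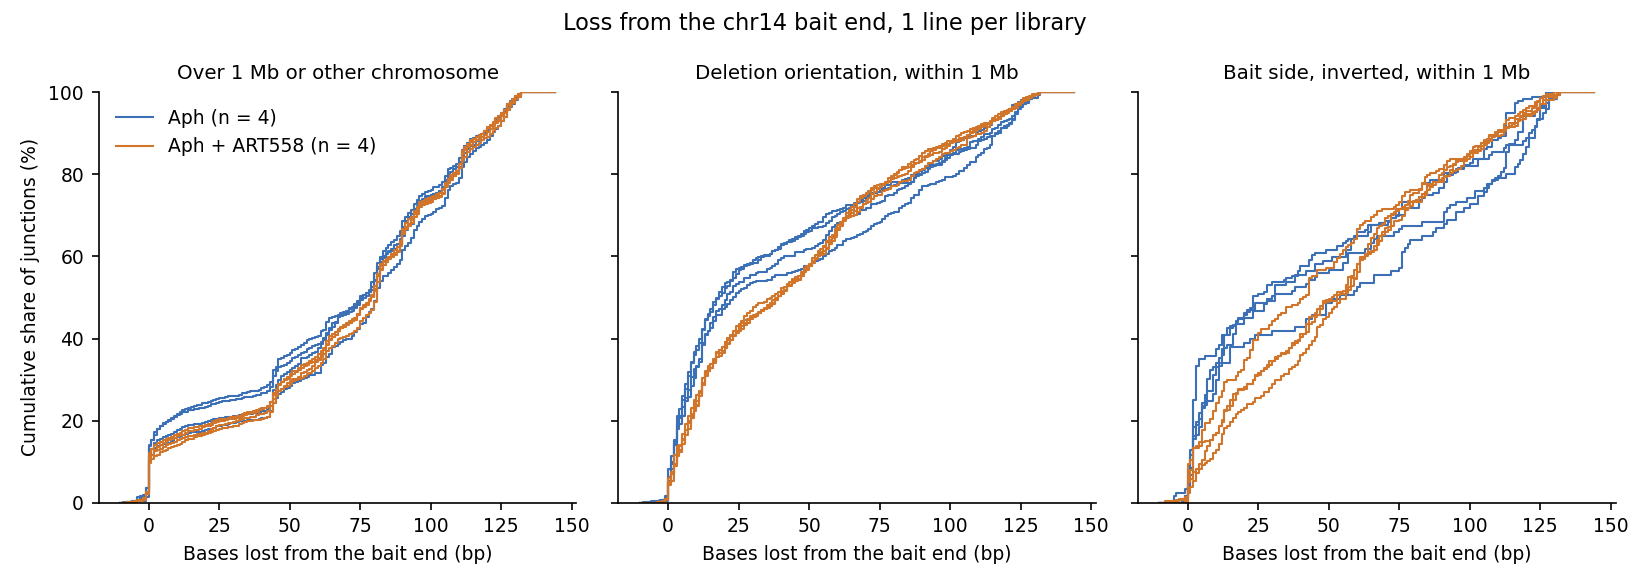
Cumulative share of junctions, in percent, against the bases lost from the bait end, in bp, for distant junctions, deletions and inverted bait-side junctions, with 1 line per library. In deletions the curves of the groups part below 50 bp, where the medians are 18 to 23.5 bp with Aph and 37 to 39 bp with Aph + ART558, while at distant junctions they overlap.

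At distant junctions, the bait end itself was resected to a like extent in both groups. The mean loss was 65.8, 68, 64.5 and 72.4 bp with Aph and 69.8, 68.8, 71.0 and 70.2 bp with Aph + ART558, with overlapping libraries (exact permutation p = 0.257, adjusted p = 0.340 over 13 measures). Intact bait ends made up 10.2%, 8.74%, 10.5% and 9.16% with Aph and 8.53%, 9.43%, 7.17% and 7.84% with Aph + ART558 (exact permutation p = 0.114, adjusted p = 0.212). Losses of over 40 bp made up 75.6% ± 3.48 and 78.0% ± 1.19 (SD, n = 4; exact permutation p = 0.314). Of 9 loss classes only that of 21 to 40 bp was without overlap, at 3.13% ± 0.395 and 4.14% ± 0.358 (SD, n = 4; exact permutation p = 0.0286, adjusted p = 0.257). The shortest bait in these files was 32 bp, so no loss above 132 bp is seen.

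Insertions, unaligned bases between bait and prey, were fewer with ART558 among distant junctions, within the overlap of the libraries. They made up 16.8%, 16.9%, 15.9% and 20.1% with Aph and 14.4%, 15.3%, 12.8% and 16.1% with Aph + ART558 (exact permutation p = 0.0571, adjusted p = 0.186 over 13 measures). Aph replicate 3 lay below the highest Aph + ART558 library. On other chromosomes alone the means were 17.3% ± 1.63 and 14.6% ± 1.65, and the groups did not overlap (SD, n = 4; exact permutation p = 0.0286, adjusted p = 0.229 over 40 class measures). Within 1 Mb the pooled difference was -0.108 percentage points (exact permutation p = 0.971), over classes that moved in opposite directions in their means. Bait-side junctions in the same direction had insertions in 18.1% ± 2.70 and 14.2% ± 2.65 (SD, n = 4), without overlap (exact permutation p = 0.0286, adjusted p = 0.229). With overlapping groups, inversions had 28.5% and 10.3% (exact permutation p = 0.0857), inverted bait-side junctions 29.0% and 26.8% (exact permutation p = 0.543), and deletions 24.0% and 26.5% (exact permutation p = 0.2). All 5 length classes had a lower mean with ART558, among them 1 bp (3.84% and 2.97%; exact permutation p = 0.0857) and 20 bp or more (2.36% and 1.95%; exact permutation p = 0.2), and all overlapped. The mean insertion length was 8.56 ± 0.468 and 8.70 ± 0.672 bp (SD, n = 4; exact permutation p = 0.743), and the longest was 30 bp.

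Pol θ is known for insertions copied from sequence near the ends, so insertions of 10 to 30 bp were searched within 200 bp of the break and of the prey on both strands. Of 721 such insertions with Aph, 12 matched near the break, 35 near the prey and 674 neither. With Aph + ART558, 24 of 805 matched near the break, 35 near the prey and 746 neither. The matched share was 7.69%, 3.55%, 5.00% and 9.09% with Aph and 7.41%, 7.17%, 9.79% and 5.93% with Aph + ART558, with overlapping groups (exact permutation p = 0.4). Among insertions of 1 bp, an A on the read strand was found in 26.2% ± 4.66 and 33.0% ± 3.22 (SD, n = 4), without overlap (exact permutation p = 0.0286, adjusted p = 0.171 over 6 insertion measures). By bait end, insertions at ends with over 100 bp lost made up 22.6%, 19.9%, 17.3% and 21.2% with Aph and 14%, 16.9%, 13.8% and 17.2% with Aph + ART558 (exact permutation p = 0.0286, adjusted p = 0.171 over 48 comparisons), also without overlap. Ends with 81 to 100 bp lost had insertions in 16.2% ± 1.41 and 13.0% ± 1.40 (SD, n = 4), likewise without overlap (exact permutation p = 0.0286, adjusted p = 0.171). The means were also lower with ART558 in 4 of the other loss classes, with overlapping groups: 11.9% and 10.4% at 0 bp, 39.3% and 34.6% at 1 to 5 bp, 9.54% and 8.15% at 41 to 60 bp, and 18.5% and 14.2% at 61 to 80 bp. They were higher in the remaining 2 classes, also with overlap, at 24.7% and 32.7% for 6 to 20 bp (exact permutation p = 0.171) and 13.3% and 20.1% for 21 to 40 bp (exact permutation p = 0.2).

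Prey on other chromosomes fell more often into recurrent DSB clusters (RDCs) when ART558 was present. RDCs are regions, mostly at long neural genes, where breaks gather under replication stress. Used here were 107 RDCs with a timing class, 42 in late constant timing regions (CTR) and 65 in timing transition regions (TTR), of which 101 lie off chromosome 14. They are those the study used for its progenitors that lack Xrcc4 and p53, and were not defined in these wild-type cells. Density is given as junctions per 1000 junctions on other chromosomes and per Mb (JPTM), in windows of 1 Mb. It was 0.420, 0.379, 0.415 and 0.384 JPTM with Aph and 0.636, 0.559, 0.548 and 0.504 JPTM with Aph + ART558. Every Aph + ART558 library was denser, with means of 0.4 ± 0.0209 and 0.561 ± 0.0548 JPTM (SD, n = 4), a 1.41-fold difference (exact permutation p = 0.0286, adjusted p = 0.186 over 13 measures). Outside the windows the density was 0.384 and 0.377 JPTM, a small drop without overlap of the groups (exact permutation p = 0.0286). The density in RDCs was 1.04 times that elsewhere with Aph and 1.49 times with Aph + ART558. The windows held 4.04% and 5.67% of junctions on other chromosomes. The difference depends on the window, at 0.260 JPTM in windows of 0.5 Mb and 0.0568 JPTM in windows of 2 Mb, without overlap of the groups in either (exact permutation p = 0.0286 each).

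Late-replicating clusters held most of the difference. CTR windows had 0.449, 0.397, 0.550 and 0.391 JPTM with Aph and 0.980, 0.700, 0.767 and 0.622 JPTM with Aph + ART558 (exact permutation p = 0.0286, adjusted p = 0.0408 over 10 prey measures). The 10 prey measures are not separate, since the share in windows and the RDC density are the same counts on different scales. The CTR, TTR and outside densities derive from those counts as well. RDC density had adjusted p = 0.0408 there and 0.186 over the 13 measures (exact permutation tests), so this value depends on the family chosen. Without Aph replicate 1, 2 or 4 the difference was 0.302 to 0.321 JPTM (exact permutation p = 0.0571). The groups still did not overlap, since with 3 libraries against 4 this p can also come with complete separation. TTR windows had 0.401, 0.369, 0.330 and 0.379 JPTM with Aph and 0.419, 0.470, 0.410 and 0.429 JPTM with Aph + ART558, also without overlap and closer together (exact permutation p = 0.0286, adjusted p = 0.0408). The ratio of CTR to TTR density was 1.22 ± 0.297 and 1.79 ± 0.414 (SD, n = 4), with overlapping libraries (exact permutation p = 0.0857), so a difference between the classes was not shown. Direct joining in the windows was 24.6% and 28.3% (exact permutation p = 0.229), near that outside them (24.8% and 26.2%).

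**Figure D4:**
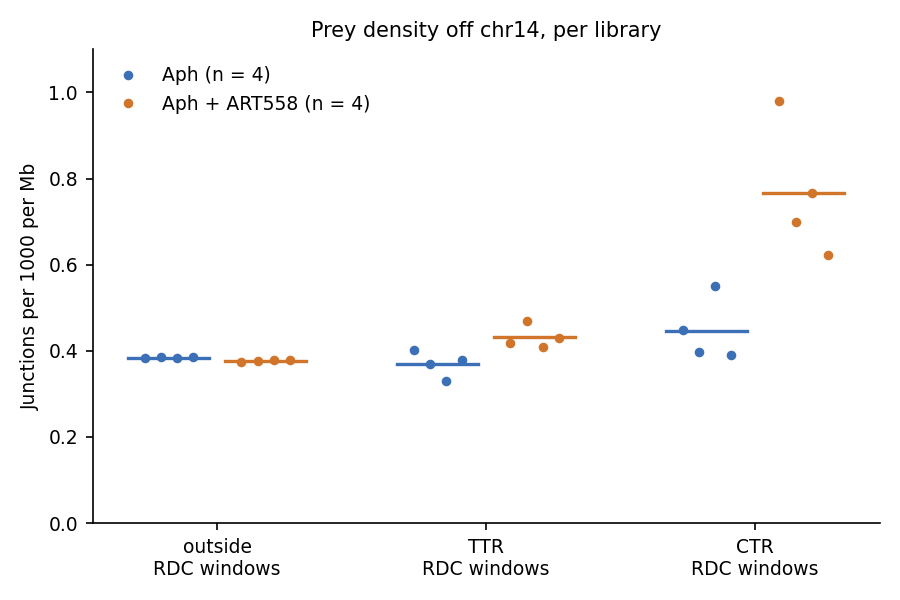
Junction density in JPTM inside RDC windows of the CTR and TTR classes and outside them, for prey on other chromosomes; points are the 4 libraries of each group and lines are means. CTR windows hold 0.391 to 0.550 JPTM with Aph and 0.622 to 0.980 JPTM with Aph + ART558, and the density outside has means of 0.384 and 0.377 JPTM, also without overlap.

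Other features of the prey moved in the same libraries. Soft-masked repeats took 40.9%, 42.5%, 40.4% and 44.2% of prey on other chromosomes with Aph and 33.9%, 37.2%, 36.4% and 38.8% with Aph + ART558 (exact permutation p = 0.0286, adjusted p = 0.0408 over 10 prey measures). That family holds overlapping measures of RDC density, so its adjusted p depends on the choice of family. With masked prey left out, an alternative added after the data were seen, RDC density still differed by 0.216 JPTM (exact permutation p = 0.0286). Prey inside protein-coding genes made up 42.5% ± 0.888 and 44.3% ± 1.37 (SD, n = 4; exact permutation p = 0.0571, adjusted p = 0.186 over 13 measures), and in genes of over 100 kb 22.6% ± 0.807 and 26.1% ± 1.31 without overlap (exact permutation p = 0.0286, adjusted p = 0.0408). Junctions on the plus strand made up 49.7% and 48.9%. Recurrent prey sites, bins of 1 kb with junctions at 3 or more positions in at least 6 libraries, were 29 in number with 1378 junctions, and took 5.75% ± 1.74 and 4.90% ± 1.20 of distant junctions (SD, n = 4; exact permutation p = 0.514). Their best matches to the guide beside an NGG within 100 bp had 7 to 14 mismatches in 20 bases, and their median bait losses were 84 to 114 bp. The rule leaves out sites with fewer positions. The largest of those found in at least 6 libraries, on chromosome 16, had 64 junctions at 2 positions in all 8 libraries, none of them soft-masked. Its best guide match had 10 mismatches and its median bait loss was 11 bp.

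Single RDC windows were thinly covered. Of 967 tiles of 1 Mb off chromosome 14 with at least 10 junctions, 14 (1.45%) were higher and 11 (1.14%) lower with ART558 without overlap. After adjustment 0 tiles passed, with 25 at an exact permutation p below 0.05 before it. Among the 101 RDC windows, 61 had a higher and 40 a lower mean with ART558, with a median difference of 0.138 JPTM beside -0.0340 JPTM over the tiles. The groups did not overlap in 2 of them, and both were higher: Cadm2 and Dcc. The tiles had a minimum of 10 junctions over the 8 libraries together and the windows had none. Cadm2 had 4 and 20 junctions and Dcc 5 and 20 in the Aph and the Aph + ART558 libraries, so both would reach that minimum only through the Aph + ART558 libraries. A difference from the tiles was not tested. By class, 27 of 39 CTR and 34 of 62 TTR windows had the higher mean with ART558.

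**Figure D5:**
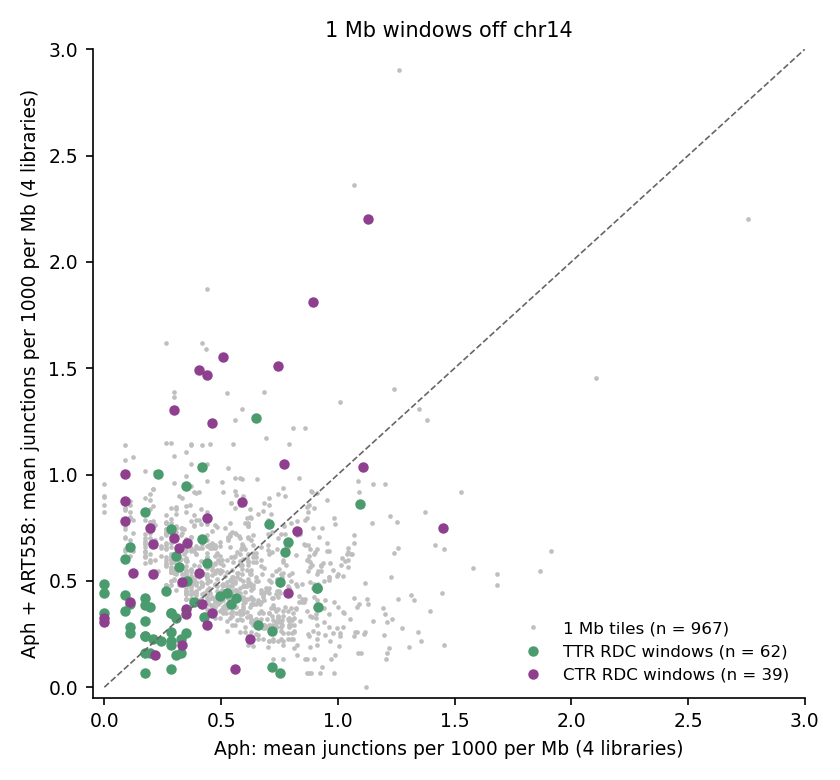
Mean junction density in JPTM with Aph (horizontal axis) and with Aph + ART558 (vertical axis) for the 101 RDC windows by class and for the 967 tiles of 1 Mb, with the line of equal density. Of the CTR windows 27 of 39 and of the TTR windows 34 of 62 lie above the line; 6 tiles lie beyond the axis limit of 3 JPTM.

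Of 90 protein-coding genes over 100 kb off chromosome 14 with at least 10 junctions, 4 (4.44%) were higher and none (0%) lower without overlap, and 51 had a higher and 39 a lower mean with ART558. The minimum applied to the 8 libraries together, and Cadm2, Dcc and Cntnap5a passed it only through the Aph + ART558 libraries where they are high, so these counts are given as a description. None passed adjustment over the 90 genes (lowest adjusted p = 0.482 in the exact permutation tests), and 4 had an exact permutation p below 0.05 before it. Lsamp, a membrane adhesion protein of the immunoglobulin superfamily (chr16:39984361-42181679), had 6, 4, 5 and 1 junctions with Aph and 10, 22, 8 and 10 with Aph + ART558. That is 0.726 ± 0.403 and 1.71 ± 0.662 JPTM (SD, n = 4). Cadm2, a cell adhesion molecule of the same superfamily, had 0, 0, 0 and 1 junctions with Aph and 4, 6, 3 and 8 with Aph + ART558. Dcc, the netrin receptor of axon guidance, had 1, 2, 2 and 0 junctions with Aph and 6, 5, 3 and 8 with Aph + ART558. Cntnap5a, a contactin-associated protein of the neurexin kind, had 1, 1, 0 and 0 junctions with Aph and 1, 5, 2 and 4 with Aph + ART558. Each density is divided by the library's own junctions on other chromosomes, and the means were 0.113 and 1.61 JPTM for Cadm2, 0.462 and 1.53 JPTM for Dcc, and 0.194 and 0.951 JPTM for Cntnap5a. Cntnap5a had 1 junction in Aph replicates 1 and 2 and in Aph + ART558 replicate 1, so that its groups are apart there only by the sizes of the libraries (0.388, 0.39 and 0.423 JPTM). These 4 genes are on the adhesion list, which was chosen with earlier results known, and this was not tested.

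By gene group, 12 of 17 adhesion genes had a higher mean density with ART558 and 5 a lower one, and 7 of the 17 had under 10 junctions over the 8 libraries. Nrxn3, a presynaptic neurexin, had 0.163 and 1.19 JPTM with overlapping libraries, and Opcml, an opioid-binding adhesion molecule, had 0.775 and 0.173 JPTM. Of 11 glutamate receptor genes 6 were higher and 5 lower. Grik2, a kainate receptor subunit, had 0.946 and 2.08 JPTM, and the metabotropic receptor gene Grm7 0.853 and 0.311 JPTM, both with overlap. Of 10 common fragile site genes 9 were higher, none without overlap, with a median difference of 0.174 JPTM beside 0.174 JPTM over the 90 long genes that passed the minimum. Among them were Lrp1b, a lipoprotein receptor gene (0.443 and 1.23 JPTM), Ccser1 (0.742 and 1.63 JPTM) and Wwox, an oxidoreductase gene (0.459 and 0.988 JPTM), while Magi2, a synaptic scaffold gene, was at 0.724 and 0.646 JPTM. Of the 3 Csmd genes 2 were higher. Of the 14 genes that the study chose on these samples, which is not independent evidence of their direction, 11 were higher and 3 lower.

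On the bait's own chromosome, all 6 RDC windows had a higher mean with ART558, each with overlapping libraries. Of 3 of their genes, Pcdh9, a protocadherin gene, was the densest, at 2.80 ± 2.21 and 3.45 ± 1.49 JPTM (SD, n = 4). Gpc6, a glypican gene, had 1.69 ± 1.22 and 2.79 ± 0.909 JPTM, and Nrg3, a neuregulin gene, had 0.922 ± 0.877 and 2.49 ± 1.06 JPTM. Off chromosome 14, of the 10 long genes with the most junctions per Mb, 4 had a higher and 6 a lower mean with ART558. Tacc2, a centrosome-associated gene, led them at 16.2 ± 7.82 and 10.1 ± 4.19 JPTM. All 57 of its junctions over the 8 libraries lay in 1 recurrent prey site, at 5 positions that were all soft-masked. Its density is thus that of this site and not of the gene body. Some others of the 10 also drew most of their junctions from 1 such site.

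With the other wild-type bait, on chromosome 6, the same treatments gave the following values. Direct joining at distant junctions was 32.7% to 47.5% in 3 Aph libraries and 30.2% to 38.4% in 4 Aph + ART558 libraries, with 764 to 1880 distant junctions each. The change with ART558 was 1.49 percentage points at chr14 and -5.24 at chr6, where it rested on Aph replicate 1 (47.5%, beside 33.7% and 32.7% in the other two) and was -0.455 without it. The difference between these changes, 6.73 points, did not pass an exact permutation test with treatment permuted within bait (p = 0.173), and without chr6 Aph replicate 1 it was 1.94 points (exact permutation p = 0.579). The chr6 bait, which is 98 bp long when intact, had lost 9.13 to 15.2 bp and 9.98 to 23.9 bp on average, and insertions made up 33.1% to 47.3% and 30.2% to 47.6%. Inverted bait-side junctions at 1 to 10 kb were at most 0.217% with Aph and 0.131% to 1.28% with Aph + ART558 there. All bait-side junctions within 1 Mb were 2.15% to 3.25% with Aph and 3.33% to 4.56% with Aph + ART558, without overlap. The mean bait loss of chr6 deletions was 13.6 to 15.9 bp and 18.3 to 23.5 bp, also without overlap. These chr6 differences were not tested. In Aph-treated neural progenitors derived from embryonic stem cells that lack Xrcc4 and p53, sequenced in other runs, 3 libraries with the chr14 bait had direct joins in 17.6% to 18.5% of distant junctions, insertions in 15.3% to 16.5%, and a mean bait loss of 46.0 to 53.6 bp. Their inverted bait-side junctions at 1 to 10 kb were 7.46% to 7.82%. Run, cell source and genotype cannot be told apart in these side-by-side values.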

How the data were processed

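LAM-HTGTS junction tables were used for 8 wild-type chr14 libraries, with 7 wild-type chr6 and 3 Xrcc4-/- p53-/- chr14 libraries beside them. The authors aligned bait and prey of each read to mm10 with the HTGTS pipeline and deposited 1 row per junction with positions on the genome and on the read, in other units (base positions, no counts); repeats were removed by the pipeline without molecular identifiers. Members and gene lists were chosen with earlier results of these data known.

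Microhomology was the overlap of bait and prey alignments on the read, a negative value being an insertion. Bait loss was the cut position minus the last bait base, overlap counted as bait, so losses are minimal. Microhomology was analysed from 0 to 10 bp and distant junctions lay more than 1 Mb away. Gene bodies came from GENCODE M21 and the RDC list is the study's by timing class. Group means were compared with two-sided exact permutation tests and Benjamini-Hochberg adjustment within each family (Python 3.11.15, numpy 2.4.6, pandas 2.3.3, scipy 1.17.1, matplotlib 3.10.9). The tile test was tested on simulated data. Named genes were the study's list for this bait, the 10 RDC windows with most junctions, the RDC genes on chromosome 14, the 10 long genes with most junctions per Mb, and members of the adhesion, glutamate receptor, Csmd and fragile site lists. One gene that this rule names is not reported here. Genes that separated the groups were named beside them after their values were seen. Alternatives counted each combination once, left out each library, recurrent sites or masked prey, changed limits and windows, and used the replicate number as a block. Depth per library was 3306 to 6251 junctions.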

Additional observations from a re-analysis of the deposited data

Results flagged for a closer look

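In 34 groups of 4 libraries checked for a library far from the rest, 1 stood out, where chance gives about 1 in 20. The median bait loss of deletions in Aph + ART558 replicate 1 was 37 bp while the other 3 libraries of that group were all at 39 bp, so the gap between them is the whole range. All 4 values lie above the 18 to 23.5 bp of the Aph libraries.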

How the results depend on the processing

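Same-numbered libraries did not deviate together (correlations of -0.216, -0.285, 0.183 and 0.0545 over 24 measures), so the numbers were taken as names. With a replicate block the smallest exact p for 4 pairs is 0.125, so the values of bait-side joining (1.82 percentage points) and RDC density (0.162 JPTM) could not pass 0.05 under it. Direct joining, at 1.49 points, gave p = 0.375 with that block in the exact test. Differences below are Aph + ART558 minus Aph. Over 20 results and 261 alternatives, 216 kept direction and side of 0.05, 17 lost and 15 gained the side, 7 reversed and 6 counts moved. The lost ones include settings without 1 library, such as bait-side joining, in which the groups still did not overlap. Reversals were all of the deletion share, which differed by -0.0419 points: 0.511 with each combination counted once, 0.0483 within 10 kb, 0.0382 within 100 kb, and -0.671 to 0.525 without 1 library. Gained were mean microhomology with combinations counted once (-0.204 bp), within 1 Mb (-0.193) and at bait ends over 20 bp from the cut (-0.223), insertions on other chromosomes (-2.78 points), without recurrent sites (-2.68) and at bait ends over 20 bp from the cut (-3.24), and genic prey without recurrent sites (2.34), in genes over 100 kb (3.55) and without masked prey (2.66). The deletion bait loss differed by 18.4 bp as a median. The ranges without 1 library were 0.652 to 2.42 points for direct joining (without Aph replicate 3 and without Aph replicate 1), -1.85 to -0.391 points for translocations (lowest in size without Aph replicate 2, and -0.794 without Aph + ART558 replicate 2), -0.155 to -0.0392 points for inversions (without Aph + ART558 replicates 1 and 4), 1.17 to 2.23 points for genic prey (lowest without Aph + ART558 replicate 1), -0.202 to -0.103 bp for mean microhomology (smallest without Aph replicate 3), -3.19 to -1.57 points for 5 to 10 bp, 1.49 to 2.23 points for bait-side joining, 1.23 to 3.86 bp for mean bait loss (lowest without Aph replicate 3) and 2.53 to 4.71 bp for deletion bait loss. Exact permutation p reached 0.0286 in these ranges without Aph replicate 1 for mean microhomology, without Aph replicate 2 for 5 to 10 bp and without Aph replicate 4 for both bait losses. Inverted bait-side joining at 1 to 10 kb stayed at 1.05 to 1.18 points and CTR density at 0.250 to 0.369 JPTM. Non-overlapping tiles numbered 25, but 2 with at least 20 junctions, 9 with tiles of 5 Mb and 32 to 46 without 1 library. The difference between baits ranged from 1.94 (without chr6 Aph replicate 1) to 9.36 points, and without chr6 Aph + ART558 replicate 2 it was 8.61 (exact permutation p = 0.0243). Settings with bait ends or masked prey were chosen after seeing the data. Depth limits single genes, most with under 30 junctions.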
